A study of Mus musculus with 6 samples.

Results

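Kupffer cells (KCs), the resident macrophages of the liver sinusoid, carry a set of surface receptors and secreted proteins by which they are recognised. These include C-type lectins that bind sugars, scavenger and complement receptors that take particles out of portal blood, and soluble pattern recognition proteins released into plasma. When resident KCs are lost, as in metabolic dysfunction-associated steatohepatitis (MASH), monocytes that enter the liver can take up much of this set and are then called monocyte-derived KCs (moKCs), or they can become hepatic lipid-associated macrophages (hLAMs). Expression of 10 such genes, Clec4f, Cd207, Clec1b, Vsig4, Marco, Folr2, Timd4, Cd5l, Fcna and Cdh5, was examined among the 16503 genes of the deposited table. They were chosen by symbol with earlier results of these data known, so their direction is not independent evidence. All 10 were in the table.

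The comparison was between CD11chiMinclehi macrophages (n = 3 libraries), the hLAM-type gate of the study, and CD11cloMinclelo macrophages (n = 3 libraries), its moKC-type gate. Both were sorted from the livers of wild type mice at 1 stage of CDA-HFD, a choline-deficient, high-fat diet that induces MASH, and both were CD45.2+, CD11b+, Ly6Clo and F4/80+ cells from which T, B and NK cells, eosinophils, neutrophils and Tim4+ cells had been gated out. No library of resident KCs or of mice on normal diet is part of the comparison. The libraries are labelled as biological replicates numbered 1 to 3 in each group, and the sources do not say whether equal numbers mark the same mouse, so p-values measure the spread between these 6 libraries.

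Reads counted in genes were estimated at 7.14 to 7.81 M (M for mega) in CD11chiMinclehi and 7.0 to 8.13 M in CD11cloMinclelo libraries. They cover only genes of the table with a unique annotated symbol and reads left after PCR duplicates were removed. They are therefore not the sequencing depth. Summed TPM (transcript abundance corrected for gene length and scaled to nearly the same total in every library) of 7 general macrophage markers was 3115 to 3228 in CD11chiMinclehi and 3058 to 3420 in CD11cloMinclelo macrophages. Itgax, which encodes the CD11c used in the gate, averaged 327 ± 12.6 TPM in CD11chiMinclehi and 183 ± 12.6 TPM in CD11cloMinclelo macrophages (SD, n = 3 each) and passed the test described below (adjusted p = 0.00467, limma). Clec4e, which encodes Mincle, averaged 365 ± 52.0 TPM in CD11chiMinclehi and 316 ± 60.8 TPM in CD11cloMinclelo macrophages (SD, n = 3 each), ranges that overlapped. It was higher in CD11chiMinclehi in each pair of equal number, and passed in neither fit (adjusted p = 0.655 without the replicate number as a block and 0.0667 with it, limma). Adgre1, which encodes F4/80, averaged 511 ± 44.2 TPM in CD11chiMinclehi and 596 ± 41.3 TPM in CD11cloMinclelo macrophages (SD, n = 3 each) and passed only with the replicate number as a block (adjusted p = 0.0422 with the block and 0.250 without it, limma). Transcripts for Ly6C (Ly6c2, log2 difference -0.01), CD11b (Itgam, 0.21) and CD45 (Ptprc, -0.07) passed in neither fit.

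All 10 KC identity genes had a lower mean in CD11chiMinclehi macrophages, and for 8 of them every CD11chiMinclehi library lay below every CD11cloMinclelo library. Such separation in this direction was found for 9.22% of all 16503 genes. The exceptions were Marco, for which 1 CD11cloMinclelo library was the lowest of all 6, and Timd4, which was near or at 0 throughout. The test was limma on log2(TPM + 1) over all genes, with a gene called at a Benjamini-Hochberg adjusted p under 0.05. Without a term for the replicate number 1 of the 10 genes was called lower (Fcna), and 0.454% of all genes were. After quantile normalization that fit called 7 of the 10 lower, adding Clec4f, Cd207, Clec1b, Vsig4, Cd5l and Folr2 at adjusted p-values of 0.0348 to 0.0483 (limma). With the replicate number as a block 8 of the 10 were called lower (all except Marco and Timd4), and 1.75% of all genes were. None of the 10 was called higher in either fit, whereas 0.77% of all genes were without the block and 1.67% with it. Leaving out single libraries without the block gave 0 to 6 of the 10 called lower, the highest count being that without CD11chiMinclehi replicate 3. With the block, leaving out a numbered pair gave 8 without replicate 1 or 3 and 0 without replicate 2, and 0 were called in either fit when the variance trend was left out of the model. The median log2 difference of the 10 genes was -1.60, beside -0.01 for all genes. A change of at least 1 on the log2 scale in this direction was seen for 8 of the 10 genes and for 4.97% of all genes. In a sorted bulk sample, fewer cells that express a gene and less of its RNA per cell cannot be told apart.

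**Figure D1:**
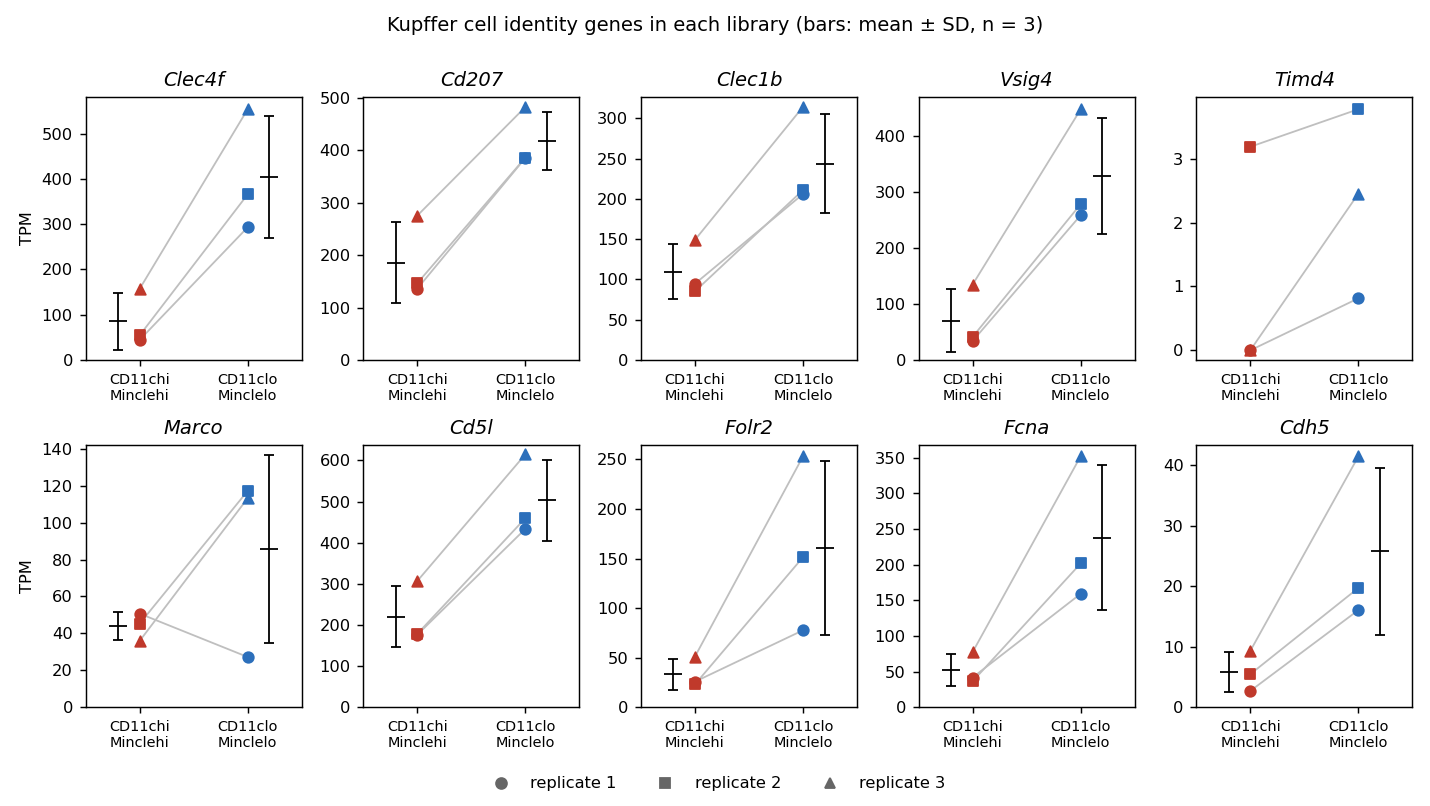
Expression of the 10 KC identity genes in TPM (vertical axis, a separate scale for each gene) in CD11chiMinclehi (red, left) and CD11cloMinclelo (blue, right) macrophages. Symbols mark replicate numbers, grey lines join equal numbers, and black bars give the mean ± SD (n = 3, not drawn for Timd4, which was listed at 0 in 2 libraries). The groups do not overlap for 8 genes, and the line of replicate 1 runs the other way for Marco only.

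The sequence upstream of the start site is shown for 4 of the genes, 3 that separated the groups (Cd207, Cd5l and Vsig4) and Marco, which did not, because they were the genes with a match to the PU.1 motif whose window held no annotated exon. PU.1 (encoded by Spi1) is the ETS factor on which macrophage gene expression depends. Of the 10 genes, 9 matched the RefSeq promoter set (build GRCm38.p6, from 250 bases before to 50 after each start), Cdh5 being the one without an entry. The letters GAGGAA were searched on both strands and were present in 5 of these 9 genes, and in 28.1% of the 32544 promoters of the set. Here and below, the 9 were counted by gene, with a match in any of its promoters, and the set by promoter. Each line gives the 160 bases before the start on the strand of the gene, and capitals mark GAGGAA or its reverse complement TTCCTC.
Cd207 (chr6:83677858-83678017, minus strand): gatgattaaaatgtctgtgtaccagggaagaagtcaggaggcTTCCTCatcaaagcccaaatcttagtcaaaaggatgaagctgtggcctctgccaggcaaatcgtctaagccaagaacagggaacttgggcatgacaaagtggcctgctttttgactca
Cd5l (chr3:87357721-87357880, plus strand): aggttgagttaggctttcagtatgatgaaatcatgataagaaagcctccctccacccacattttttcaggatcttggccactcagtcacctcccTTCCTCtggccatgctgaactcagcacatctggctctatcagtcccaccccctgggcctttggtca
Vsig4 (chrX:96293439-96293598, minus strand): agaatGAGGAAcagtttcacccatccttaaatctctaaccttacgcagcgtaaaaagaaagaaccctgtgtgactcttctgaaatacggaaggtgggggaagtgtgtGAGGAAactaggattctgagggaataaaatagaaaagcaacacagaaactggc
Marco (chr1:120505025-120505184, minus strand): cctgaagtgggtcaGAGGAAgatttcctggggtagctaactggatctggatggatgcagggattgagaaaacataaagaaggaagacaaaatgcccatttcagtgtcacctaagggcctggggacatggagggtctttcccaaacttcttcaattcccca
The fifth gene with a match was Fcna. Further letters searched on both strands were TGGGAA, bound by RBPJ, the factor of Notch signalling, and AGGTCA, a half-site of nuclear receptors such as LXR. TGGGAA was present in 3 of the 9 genes (Clec4f, Fcna and Marco) and in 25.4% of all promoters. AGGTCA was present in 2 of the 9 (Clec4f and Timd4) and in 16.2% of all promoters. These matches describe letters, and no binding was measured.

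Among the lectin receptors, Clec4f showed a lower level in CD11chiMinclehi macrophages. Clec4f encodes a C-type lectin that in mice is nearly restricted to KCs and binds galactose-type sugars. It lies at chr6:83644542-83656187 on the minus strand (GRCm38), 15027 bases from Cd207, with 0 genes annotated between them. Clec4f was at 44.2, 54.2 and 157 TPM in CD11chiMinclehi libraries 1, 2 and 3, against 293, 366 and 554 TPM in CD11cloMinclelo libraries 1, 2 and 3. The third library was the highest of each group, and the highest CD11chiMinclehi value still lay well below the lowest CD11cloMinclelo value. The log2 difference was -2.42 ± 0.45 (SE, limma), and the means differed 4.76-fold. It missed the threshold without the block (adjusted p = 0.0519) and passed with it (adjusted p = 0.00242).

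Its neighbour Cd207 encodes langerin, a mannose-binding C-type lectin best known from Langerhans cells of the skin. Cd207 (chr6:83671215-83677857, minus strand) was at 136, 146 and 275 TPM in CD11chiMinclehi libraries and at 386, 386 and 483 TPM in CD11cloMinclelo libraries. Both groups again had their highest value in replicate 3, and they did not overlap. The log2 difference of -1.23 ± 0.25 (SE, limma) corresponded to means that differed 2.25-fold, with an adjusted p of 0.0641 without the block and 0.00589 with it. The ratio of Clec4f to Cd207 TPM within a library was 0.325, 0.370 and 0.570 in CD11chiMinclehi and 0.761, 0.948 and 1.15 in CD11cloMinclelo macrophages. Clec4f was thus lower relative to its neighbour in each CD11chiMinclehi library than in any CD11cloMinclelo library, a pair looked at after the values were seen and not tested. Cd207 is also expressed by some dendritic cells, and the summed TPM of 10 dendritic cell markers, all of them in the table, was 123 to 277 in CD11chiMinclehi and 98.3 to 347 in CD11cloMinclelo macrophages. None of these markers was called in either fit.

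Clec1b encodes CLEC-2, the receptor for podoplanin, which platelets and KCs share. Clec1b (chr6:129397297-129409335, plus strand) was at 94.6, 85.2 and 149 TPM in CD11chiMinclehi libraries and at 206, 211 and 315 TPM in CD11cloMinclelo libraries. Every library of the first group lay below every library of the second. The log2 difference was -1.16 ± 0.23 (SE, limma), with an adjusted p of 0.0640 without the block and 0.00164 with it, and the means differed 2.22-fold. Of 9 platelet markers 5 were in the table, with a summed TPM of 185 to 282 in CD11chiMinclehi and 274 to 397 in CD11cloMinclelo macrophages. The sum was lower in CD11chiMinclehi in each of the 3 numbered pairs, and most of it was Pf4, the 1 marker called lower with the block. Itga2b, which defines the platelet lineage, was at 0.316, 0.503 and 0 TPM in CD11chiMinclehi and at 1.20, 2.68 and 2.07 TPM in CD11cloMinclelo libraries, without overlap, and passed in neither fit. The part of platelet transcripts in the Clec1b result was not tested. Clec1b shares annotated exon bases with Clec9a, a dendritic cell gene that averaged 7.38 TPM in CD11chiMinclehi and 5.93 TPM in CD11cloMinclelo macrophages, and how reads in the shared bases were assigned is not stated.

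Vsig4 encodes CRIg, the complement receptor with which KCs capture opsonised bacteria from blood. Vsig4 (chrX:96247203-96293438, minus strand) was at 33.7, 41.1 and 135 TPM in CD11chiMinclehi libraries, against 259, 278 and 448 TPM in CD11cloMinclelo libraries. Its log2 difference of -2.45 ± 0.48 (SE, limma) had the largest size among the 10 genes on the log2(TPM + 1) scale over all libraries (adjusted p = 0.0608 without the block and 0.00381 with it). By the ratio of mean TPM, Folr2 (4.81-fold) and Clec4f (4.76-fold) differed more than Vsig4 (4.70-fold). The third CD11chiMinclehi library stood apart from the other two for this gene, as it did for Clec4f. Vsig4 TPM was 0.764, 0.759 and 0.858 of Clec4f TPM in CD11chiMinclehi libraries and 0.882, 0.761 and 0.808 of it in CD11cloMinclelo libraries, so that this ratio, unlike that of Clec4f to Cd207, overlapped between the groups.

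Folr2 encodes folate receptor beta, a marker of several resident macrophage populations. Folr2 (chr7:101839988-101857194, minus strand) was at 25.9, 23.2 and 51.1 TPM in CD11chiMinclehi libraries and at 77.7, 151 and 253 TPM in CD11cloMinclelo libraries. The groups did not overlap, although the lowest CD11cloMinclelo library, replicate 1, was nearer to the CD11chiMinclehi values than the others. The log2 difference was -2.16 ± 0.44 (SE, limma), with an adjusted p of 0.0654 without the block and 0.00446 with it. Folr2 shares exon bases with the antisense gene Gm10602, and no source used here says whether counting used strand.

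Marco encodes a class A scavenger receptor that binds bacteria and modified lipoproteins. Marco (chr1:120474538-120505024, minus strand) was at 50.8, 45.2 and 35.9 TPM in CD11chiMinclehi libraries and at 27.3, 117 and 113 TPM in CD11cloMinclelo libraries. The CD11chiMinclehi libraries lay close together, whereas CD11cloMinclelo replicate 1 stood far below the other two of its group and below every CD11chiMinclehi library. Marco was the 1 gene of the 10 that was higher in CD11chiMinclehi than in the equally numbered CD11cloMinclelo library in any pair. The log2 difference of -0.70 had a 95% interval of -1.88 to 0.47 (limma, adjusted p = 0.655 without the block and 0.499 with it), an interval that includes 0 and also the estimates of Cd207, Cd5l and Clec1b. Without CD11cloMinclelo replicate 1 the log2 difference was -1.38 and passed (adjusted p = 0.0456, limma), as it did with the block once replicate 1 of both groups was left out (-1.49, adjusted p = 0.0149, limma). It was nearer to 0 without CD11cloMinclelo replicate 2 (-0.35, adjusted p = 0.866, limma) or replicate 3 (-0.38, adjusted p = 0.872, limma). With the block it was also nearer to 0 without replicate 2 of both groups (-0.38, adjusted p = 0.831, limma) or replicate 3 of both groups (-0.24, adjusted p = 0.853, limma).

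Timd4 encodes Tim4, the phosphatidylserine receptor by which resident KCs are usually recognised and which both gates excluded at the protein level, so its transcript is a check of the sort. Timd4 (chr11:46810800-46844332, plus strand) was at 0, 3.19 and 0 TPM in CD11chiMinclehi libraries and at 0.814, 3.77 and 2.45 TPM in CD11cloMinclelo libraries. These values stand for about 0, 12 and 0 estimated reads in CD11chiMinclehi and 3, 16 and 9 in CD11cloMinclelo libraries. The groups overlapped, and replicate 2 was the highest of each. The fitted log2 difference had a 95% interval of -2.63 to 0.74 (limma, adjusted p = 0.684 without the block and 0.473 with it), and no difference was detectable at this depth. In both groups Timd4 was the lowest of the 10 genes.

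Of the secreted proteins, Cd5l encodes AIM, a soluble scavenger receptor cysteine-rich protein of plasma that acts on lipid metabolism and apoptosis. Cd5l (chr3:87357881-87371073, plus strand) was the most abundant of the 10 genes in both groups, at 176, 178 and 307 TPM in CD11chiMinclehi libraries and 434, 460 and 615 TPM in CD11cloMinclelo libraries. Replicate 3 was the highest of each group, and the groups did not overlap. The log2 difference was -1.22 ± 0.22 (SE, limma), with an adjusted p of 0.0502 without the block and 0.00164 with it.

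Fcna encodes ficolin A, a secreted lectin that starts the lectin pathway of complement. Fcna (chr2:25624666-25628030, minus strand) was at 41.9, 36.5 and 77.4 TPM in CD11chiMinclehi libraries, against 159, 202 and 352 TPM in CD11cloMinclelo libraries. Every CD11chiMinclehi library lay below every CD11cloMinclelo library, and the means differed 4.58-fold. Fcna was the only one of the 10 genes called lower in both fits, with a log2 difference of -2.17 ± 0.34 (SE, limma) and an adjusted p of 0.0326 without the block and 0.00154 with it. Leaving out single libraries gave adjusted p-values from 0.0361, without CD11chiMinclehi replicate 3, to 0.145, without CD11chiMinclehi replicate 1, so the call without the block was held only when CD11chiMinclehi replicate 3 was the library left out. Fcna shares exon bases with the antisense gene Fcnaos.

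Cdh5 encodes VE-cadherin, the adhesion molecule of endothelial junctions, and its transcript is also counted among those of mouse KCs. Cdh5 (chr8:104101625-104144511, plus strand) was at 2.72, 5.49 and 9.33 TPM in CD11chiMinclehi libraries and at 16.1, 19.8 and 41.5 TPM in CD11cloMinclelo libraries. The groups did not overlap, at a level well below that of the lectins. The log2 difference was -1.97 ± 0.47 (SE, limma), with an adjusted p of 0.112 without the block and 0.0126 with it. All 18 endothelial markers sought were in the table, and their summed TPM was 175 to 301 in CD11chiMinclehi and 146 to 372 in CD11cloMinclelo macrophages. None of these 18 markers was called in either fit. Stab2, a sinusoidal endothelial receptor, averaged 5.72 TPM in CD11chiMinclehi and 17.4 TPM in CD11cloMinclelo macrophages. Pecam1, of endothelium and platelets, averaged 15.7 TPM in CD11chiMinclehi and 27.1 TPM in CD11cloMinclelo macrophages. Other markers of the 18 did not share this direction. Esam averaged 16.7 TPM in CD11chiMinclehi and 11.4 TPM in CD11cloMinclelo macrophages. The means of Clec4g, Oit3 and Lyve1 were also higher in CD11chiMinclehi macrophages. Eng was nearly level, at 73.5 TPM in CD11chiMinclehi and 73.3 TPM in CD11cloMinclelo macrophages. The part of endothelial transcripts in the Cdh5 result was not tested.

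**Figure D2:**
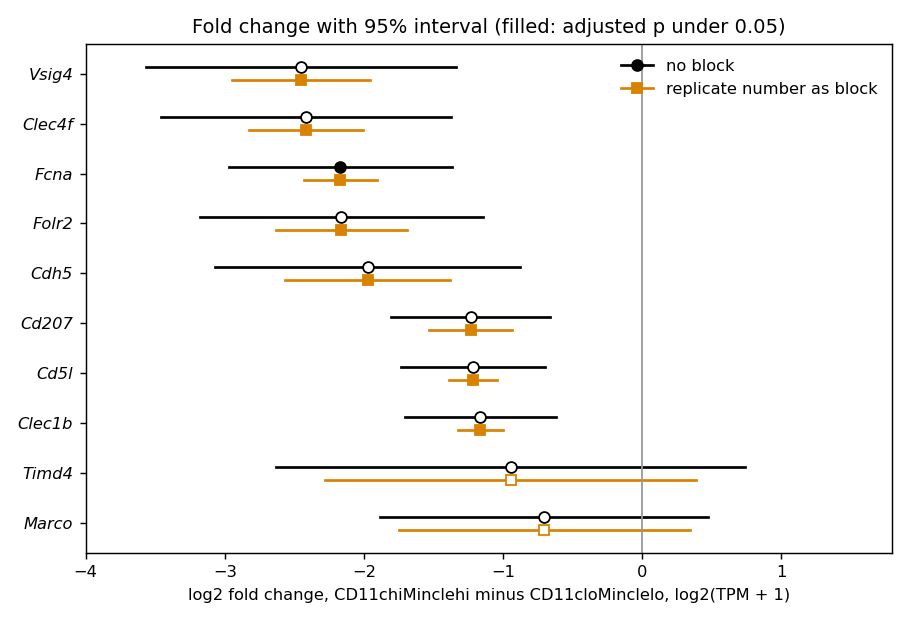
Log2 difference in log2(TPM + 1), CD11chiMinclehi minus CD11cloMinclelo, for the 10 genes, with 95% intervals from limma without (black) and with (orange) the replicate number as a block. Filled symbols mark an adjusted p under 0.05. All estimates lie below 0, the intervals of Marco and Timd4 cross 0 in both fits, and 8 symbols are filled with the block against 1 without it.

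The genes differed in how far they were lower. Vsig4, Clec4f, Fcna, Folr2 and Cdh5 had log2 differences from -2.45 to -1.97, and Cd207, Cd5l and Clec1b from -1.23 to -1.16. Abundance separated these sets only in part. Vsig4 was at the 92.5 percentile of mean TPM among all genes and Cdh5 at the 43.9 percentile, both in the first set. The genes of the second set were between the 90.7 percentile (Clec1b) and the 98.3 percentile (Cd5l). Cd5l and Cd207 were above every gene of the first set, whereas Clec1b was below Clec4f and Vsig4. In CD11chiMinclehi macrophages alone, Cd5l, Cd207 and Clec1b had the highest means. In CD11cloMinclelo macrophages Clec4f and Vsig4 were above Clec1b. The part of abundance or of duplicate removal in the size of the differences was not tested. The log2(TPM + 1) scale shrinks the estimates of Cdh5 and Timd4, which had the lowest values, and no difference was detectable for Timd4.

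**Figure D3:**
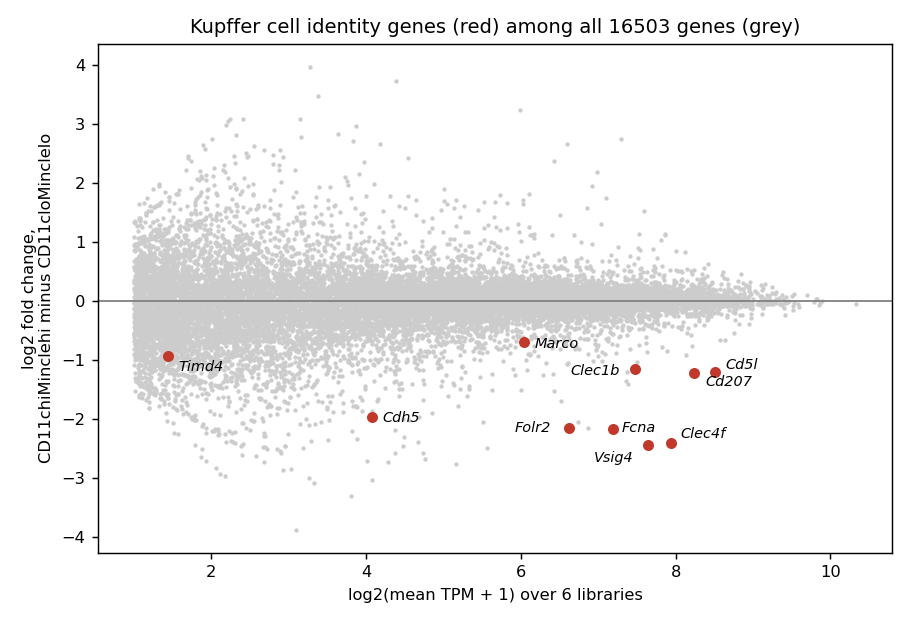
Log2 difference, CD11chiMinclehi minus CD11cloMinclelo, against log2(mean TPM + 1) over 6 libraries for all 16503 genes (grey) and the 10 KC identity genes (red). Of the 10 genes, 8 lie at or below -1 on the vertical axis, where 4.97% of all genes lie, and 7 of these 8 (all but Cdh5) are at or above the 79.3 percentile of mean TPM.

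The order of the genes by mean TPM also differed between the groups. In CD11chiMinclehi macrophages it ran Cd5l (221), Cd207 (186), Clec1b (110), Clec4f (85.1), Vsig4 (69.8), Fcna (51.9), Marco (44.0), Folr2 (33.4), Cdh5 (5.84) and Timd4. In CD11cloMinclelo macrophages it ran Cd5l (503), Cd207 (418), Clec4f (405), Vsig4 (328), Clec1b (244), Fcna (238), Folr2 (161), Marco (85.9), Cdh5 (25.8) and Timd4. Neighbours in these orders had overlapping ranges except Folr2 and Cdh5 in CD11chiMinclehi and Cdh5 and Timd4 in CD11cloMinclelo macrophages. Clec1b was above Clec4f in 2 of 3 CD11chiMinclehi libraries, and both Clec4f and Vsig4 had a higher mean than Clec1b in CD11cloMinclelo macrophages.

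The libraries within a group were not alike, and the difference between them was shared by most of the genes. Replicate 3 was the highest library of both groups for 8 of the 10 genes, and for 11.7% of all genes. The summed TPM of the 10 genes was 606, 619 and 1197 in CD11chiMinclehi libraries 1, 2 and 3, against 1859, 2195 and 3176 in CD11cloMinclelo libraries 1, 2 and 3. The CD11chiMinclehi sum of replicate 3 stood well above the others and still below every CD11cloMinclelo sum. Within pairs of equal number, 9 of the 10 genes were lower in CD11chiMinclehi in 3 of 3 pairs, as were 19.2% of all genes. For Clec4f the log2 difference was -2.70, -2.73 and -1.81 in pairs 1, 2 and 3, and for Vsig4 it was -2.90, -2.73 and -1.73, so the third pair differed least. Fcna (-1.90, -2.43 and -2.17) and Cdh5 (-2.20, -1.68 and -2.04) did not show this order.

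**Figure D4:**
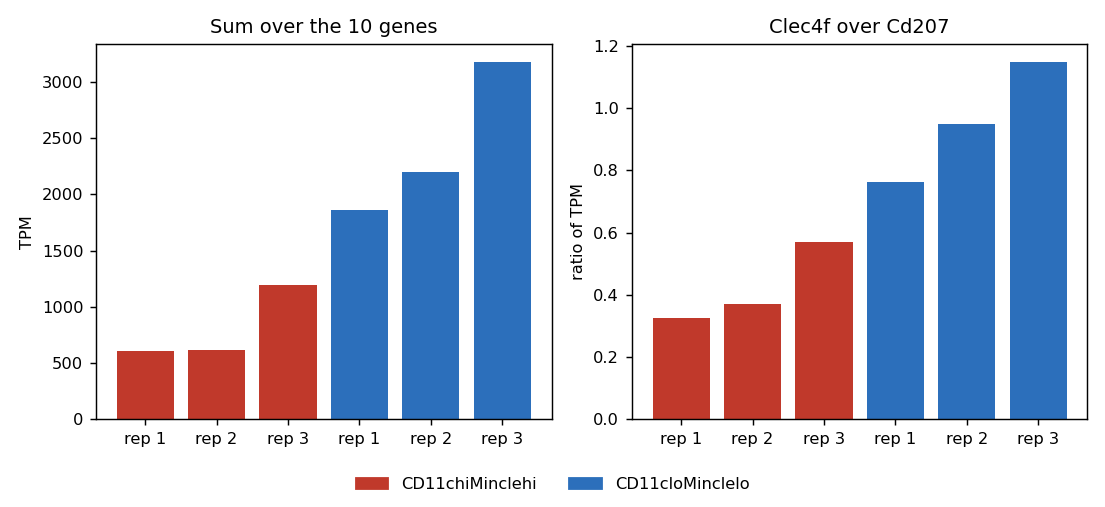
Summed TPM of the 10 KC identity genes (left) and the ratio of Clec4f to Cd207 TPM (right) in each library of CD11chiMinclehi (red) and CD11cloMinclelo (blue) macrophages. Each bar is 1 library. Sums run from 606 to 1197 in red and from 1859 to 3176 in blue, ratios from 0.325 to 0.570 and from 0.761 to 1.15, without overlap.

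Other transcripts of KCs were examined from a list of 30 surface, secreted and metabolic genes, of which 29 were in the table. The list was composed with earlier results of these data known. Without the block 2 of the 29 were called lower, beside 0.454% of all genes, and with the block 12 were, beside 1.75% of all genes. None was called higher in either fit. Without the variance trend none of the 29 was called in either fit, Ptgs1 and Dmpk included. Leaving out single libraries gave 0 to 3 called lower without the block, and with the block leaving out a numbered pair gave 0 (without replicate 2) to 11. Their median log2 difference was -0.56, with 26 of 29 below 0, as were 51.9% of all genes. Ptgs1, which encodes cyclooxygenase-1, was at 187, 164 and 231 TPM in CD11chiMinclehi libraries and at 364, 329 and 404 TPM in CD11cloMinclelo libraries (log2 difference -0.92, adjusted p = 0.0242 without the block and 0.00164 with it, limma). Dmpk, a serine/threonine kinase gene best known from myotonic dystrophy, was at 85.5, 71.9 and 115 TPM in CD11chiMinclehi libraries and at 223, 201 and 299 TPM in CD11cloMinclelo libraries (log2 difference -1.41, adjusted p = 0.0242 without the block and 0.00102 with it, limma). The groups did not overlap for either gene.

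The remaining 10 were called with the block only, and 6 of them are given here by size of the difference. Slc16a9, of the monocarboxylate transporter family, had the largest log2 difference, -3.10, at low levels of 0.289, 0.154 and 3.02 TPM in CD11chiMinclehi libraries, against 9.26, 10.2 and 31.4 TPM in CD11cloMinclelo libraries. C6, a component of the terminal complement pathway, was at 0.782, 5.15 and 9.18 TPM in CD11chiMinclehi and at 5.10, 42.1 and 91.1 TPM in CD11cloMinclelo libraries. The C6 ranges overlapped, and each CD11chiMinclehi library was below its equally numbered counterpart (log2 difference -2.59, adjusted p = 0.335 without the block and 0.0129 with it, limma). Smaller log2 differences were found for Il18bp, the soluble inhibitor of IL-18 (-0.69), Hpgd, which inactivates prostaglandins (-0.67), Slc40a1, the iron exporter ferroportin (-0.66), and Itga9, an integrin alpha chain (-0.65). Members that passed in neither fit included the complement C1q chains (-0.13 for C1qa, -0.07 for C1qb and -0.11 for C1qc), which were chosen for mention after their values were seen.

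**Figure D5:**
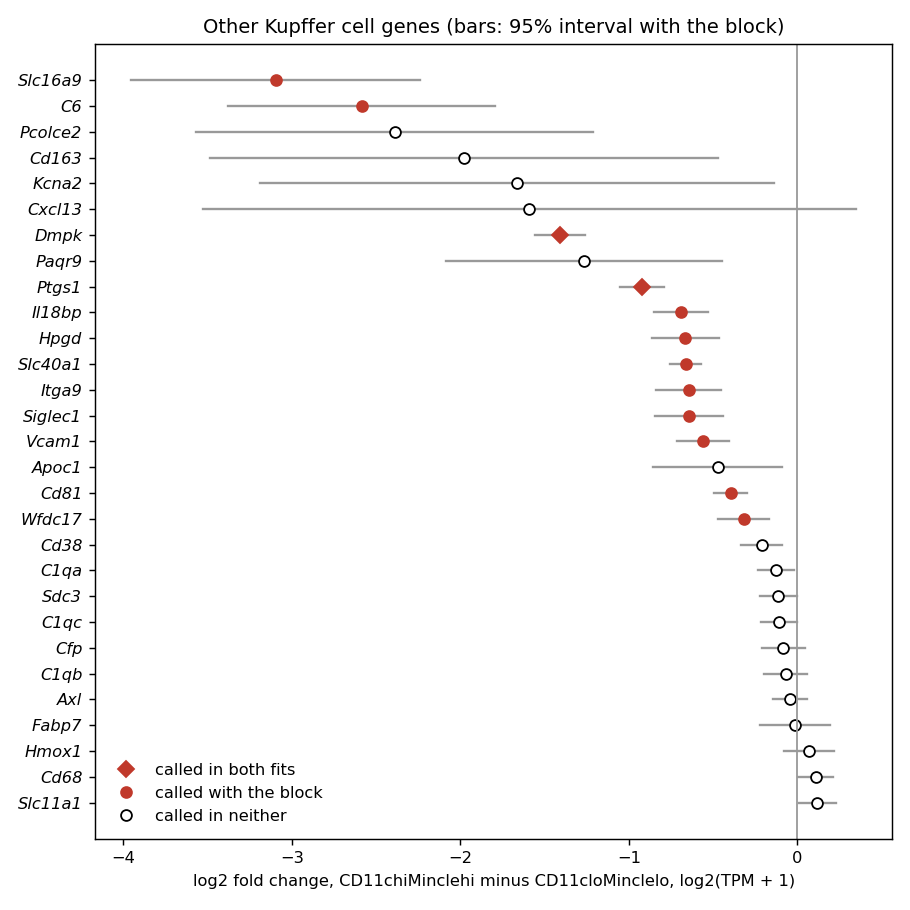
Log2 difference, CD11chiMinclehi minus CD11cloMinclelo, for the 29 other KC transcripts, with 95% intervals from limma with the replicate number as a block. Diamonds mark the 2 genes called in both fits (Dmpk and Ptgs1), filled circles the 10 called with the block only, and open circles the 17 called in neither.

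The genes whose profile over the 6 libraries was most like the mean profile of the KC identity genes were sought among 9660 genes with a mean of at least 10 TPM. Likeness was the root mean square difference over the 6 libraries between log2(TPM + 1) profiles, each centred on its own mean, and Timd4 was left out of the mean profile for its low level. The nearest were Hap1 (0.208), Hic1 (0.248), Ckap2l (0.266), Cdc20 (0.271), Phf11 (0.278), Mmp2 (0.285), Wfdc18 (0.306) and Fcrls (0.307), where smaller is closer. The 9 genes of the profile were themselves at 0.248 (Fcna) to 0.830 (Marco). Fcrls, an Fc receptor-like scavenger gene, was at 25.8, 34.3 and 73.6 TPM in CD11chiMinclehi libraries and at 163, 156 and 242 TPM in CD11cloMinclelo libraries. Since these genes were chosen by a profile that holds the difference between the groups, that difference was not tested for them.

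Markers of other cells were present in both groups. The summed TPM of 7 hepatocyte markers was 1000 to 1990 in CD11chiMinclehi and 1146 to 1645 in CD11cloMinclelo macrophages, and that of 6 T and NK cell markers was 17.6 to 298 in CD11chiMinclehi and 17.0 to 436 in CD11cloMinclelo macrophages. Both ranges overlapped between the groups. Stellate cell and fibroblast markers (6 of 7 in the table) summed to 100 to 132 TPM in CD11chiMinclehi and 153 to 221 TPM in CD11cloMinclelo macrophages, without overlap, with 1 called lower without the block and 2 with it. Monocyte markers (5 of 6 in the table) summed to 374 to 590 TPM in CD11chiMinclehi and 535 to 859 TPM in CD11cloMinclelo macrophages. These ranges overlapped, but the sum was lower in CD11chiMinclehi in each of the 3 numbered pairs, and 1 marker, Plac8 (mean 45.2 TPM in CD11chiMinclehi and 136 TPM in CD11cloMinclelo macrophages), was called lower with the block. B cell markers (5, all in the table) summed to 256 to 314 TPM in CD11chiMinclehi and 282 to 433 TPM in CD11cloMinclelo macrophages. These ranges also overlapped, with the sum lower in CD11chiMinclehi in each of the 3 numbered pairs. Neutrophil markers (5 of 6 in the table) summed to 266 to 474 TPM and 251 to 607 TPM, respectively. No B cell or neutrophil marker was called in either fit. The part of all these cells in the results for the KC identity genes was not tested.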

How the data were processed

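Liver macrophages of 2 sorted populations were profiled by poly(A)-selected, directional RNA-seq (3 libraries each). Per the submitters' notes and methods, the authors used Trimmomatic 0.39.0 for trimming, HISAT2 2.2.1 for alignment (GRCm38), Picard for the removal of PCR duplicates and featureCounts 2.0.1 for gene counts. These counts were converted by the authors into the deposited TPM values with mm10 gene models. No source used here names the annotation release or whether counting used strand. Removal of duplicates can lower the values of abundant genes. The table held 16503 genes, with a lowest mean of 1.00 TPM and sums of 996785 to 997771 TPM per library. TPM keeps no depth, so reads were estimated from the step between low values with GENCODE exon lengths, and 80.1% to 87.6% of low values were whole multiples of it (tolerance 0.05).

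log2(TPM + 1) was fitted with limma 3.58.1 in R 4.3.3 (empirical Bayes, mean-variance trend, two-sided, Benjamini-Hochberg over all 16503 genes), without and with the replicate number as a block. The fit was tested on simulated data. Their noise depended on the mean level alone and held no replicate effect, so they cannot test the pairing. Deviations from the group means correlated at 0.36, 0.203 and 0.116 between libraries with equal numbers, each above 0.1. Between libraries with unequal numbers the correlations ran from -0.244 to 0.06. Equal numbers were therefore used as pairs, with the weakest ground for replicate 3. This pairing comes from the data and not from a stated source. Genes named besides the 10 were the gate genes, the 8 nearest profiles among genes with symbols that are not unnamed models, and up to 8 called genes of the other KC list by size. C1q chains, Plac8, Pf4, Itga2b, Gp1ba, Ppbp, Treml1, Clec9a, Stab2, Pecam1, Clec4g, Oit3, Lyve1, Esam and Eng were added after their values were seen. The 10 genes and all lists were chosen with earlier results of these data known. Of the 10 genes, 9 are in the KC signature list of the study and 9 in its moKC list, so their direction is not independent evidence. Alternatives were other pseudocounts (0.1 and 10), a mean of at least 5 TPM, no variance trend, median centring, quantile normalization and leaving out libraries. The 4 combinations of the block with another pseudocount, no trend or quantile normalization were chosen after seeing the data.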

Additional observations from a re-analysis of the deposited data

How the results depend on the processing

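All 199 log2 differences of single KC identity genes under 20 alternatives stayed below 0 (Timd4 could not be fitted at a mean of at least 5 TPM). The count called lower moved from 1 of 10 to 8 with the replicate block, 3 at a mean of at least 5 TPM, 2 with median centring, 7 with quantile normalization and 0 without the variance trend. The block with a pseudocount of 0.1 or 10 or with quantile normalization gave 8 each, and with no trend 0, where 0 of all 16503 genes passed and 8 of the 10 had an unadjusted p under 0.05. Leaving out 1 library gave 0 to 6 (6 without CD11chiMinclehi replicate 3), and leaving out a numbered pair, with the block, 0 (without replicate 2) to 8, with 8 or 9 genes at an unadjusted p under 0.05 in each of these fits. The block changed the call of 7 genes (all but Fcna, Marco and Timd4) and no other call of the 10.

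The median of the 10 genes, -1.60, was -2.18 with a pseudocount of 0.1 and -1.19 with 10, with or without the block, -1.97 at a mean of at least 5 TPM, and -1.94 to -1.34 without single libraries. Of the other KC list, 12 were called lower with the replicate block, 5 with quantile normalization, 0 without the trend, and with the block 11 and 10 at pseudocounts of 0.1 and 10, 15 with quantile normalization and 0 without the trend. Leaving out libraries gave 0 to 3 and leaving out pairs, with the block, 0 to 11. With quantile normalization 1 of this list was called higher, with and without the block.

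Over all genes, 75 were called lower and 127 higher. The replicate block gave 289 lower and 275 higher, no trend 11 and 8, median centring 41 lower, and quantile normalization 138 and 201. The block gave 214 lower and 211 higher with a pseudocount of 0.1, 286 and 266 with 10, 334 and 329 with quantile normalization, and 0 and 0 without the trend. Leaving out single libraries gave 2 to 52 lower and 4 to 40 higher, and leaving out numbered pairs, with the block, 0 to 281 lower and 0 to 241 higher (51 and 43 without replicate 1). The share of lower calls was 37.1% as deposited, 29.7% with median centring, 40.7% with quantile normalization, 51.2% with the replicate block, 57.9% without the trend, and 21.1% (without CD11cloMinclelo replicate 3) to 56.5% (without CD11chiMinclehi replicate 3) without single libraries. Depth limits Timd4, at 16 estimated reads or fewer per library.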
